A study of Mus musculus with 12 samples.

Results

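The genes of the urea cycle and of amino acid catabolism were followed in mouse hepatocytes that carried a P16 vector or its control, before and after loss of most of the liver. The set holds 47 genes of 31053 gene rows in the count table. They were chosen by name from pathway knowledge, with earlier results of these data known. All 47 passed the filter on low counts, which kept 12257 genes for testing. Poly(A)-enriched libraries came from 12 wild-type C57BL/6J mice, 3 in each of 4 groups, all 3 months old and on chow. Every mouse had received an AAV8 vector by tail vein, in which TBG, a promoter active in hepatocytes, drove eGFP together with P16 (P16 mice) or eGFP alone (GFP mice). P16, the product of Cdkn2a, inhibits the kinases that start the cell cycle. Surgery followed the vector by 1 week. The groups were P16 mice 48 h after removal of 70% of the liver, GFP mice 48 h after it, P16 mice before it (0 h) and GFP mice before it. Hepatocytes were isolated by collagenase perfusion, and each library is 1 mouse.

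Hepatocytes strip nitrogen from surplus amino acids and convert it to urea. Carbamoyl phosphate and aspartate each bring a nitrogen atom into the cycle, and arginine is split to urea and ornithine at its end. The carbon skeletons enter gluconeogenesis, ketone body formation or one-carbon metabolism, and much of this enzyme programme is a mark of mature liver cells.

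Libraries held 14617049 to 25409451 reads in genes. Cdkn2a, which the P16 vector carries, had 105 to 620 reads in every P16 library and 0 to 5 in GFP libraries. Alb, the hepatocyte product albumin, had 42969 to 69266 CPM, while 7 markers of neutrophils and lymphocytes summed to 0 to 1.27 CPM. Of these, Ly6g had no reads in any library, and S100a8 and S100a9 reached 0.391 and 0.502 CPM. GFP mouse 2 at 0 h held more macrophage marker RNA than any other library, at a summed 200.3 CPM. Levels are CPM, read counts put on a common library size with TMM factors. Calls were made at 0.05 on the p of edgeR's quasi-likelihood test after Benjamini-Hochberg adjustment across the 12257 genes. Changes are log2 fold changes with their standard error (SE), and rises and falls are on that scale unless a fold is named.

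Per kilobase of exon, and averaged over all 12 libraries, the levels ran from 1626 RPKM for Ass1, argininosuccinate synthase of the urea cycle, to 5.55 RPKM for Bcat2, which transaminates branched-chain amino acids. Gnmt, which uses up S-adenosylmethionine, stood next to the top at 1551 RPKM, then Hpd of tyrosine breakdown at 784 RPKM and Cdo1 of cysteine breakdown at 629 RPKM. Together the 47 genes took 2.07 to 2.71% of gene reads in P16 mice at 48 h and 2.73 to 3.02% in GFP mice at 48 h. At 0 h they took 3.02 to 3.64% in P16 mice and 3.16 to 3.89% in GFP mice. The principal component that separated 48 h from 0 h held 84.7% of the variance of these 47 genes, and the next held 5.17%. The heat map of all 47 genes shows this split by time.

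**Figure D1:**
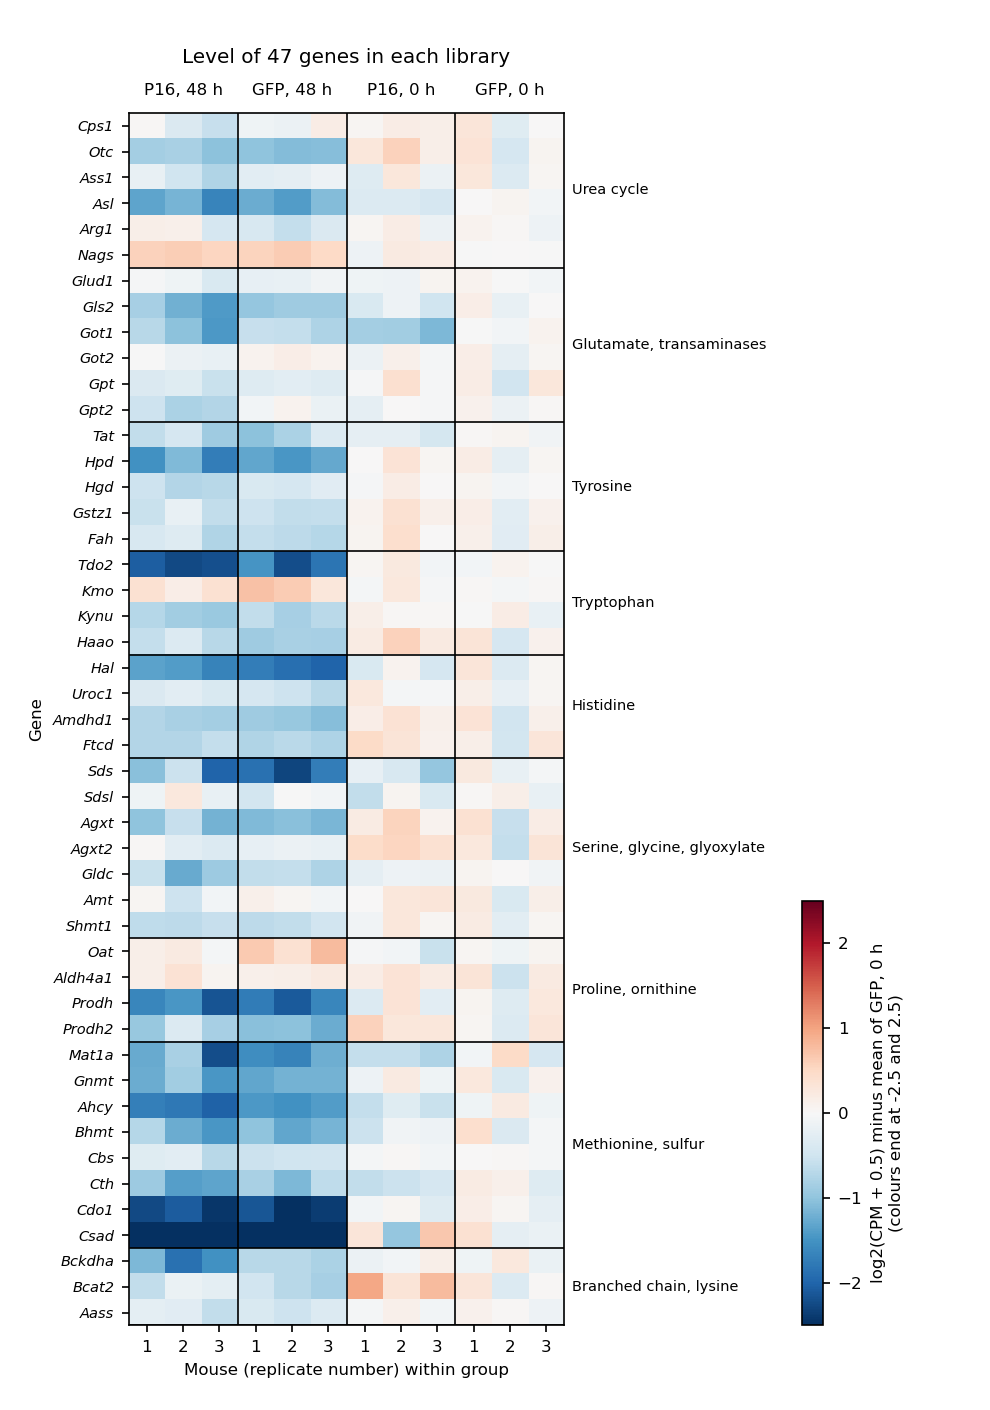
Each row is a gene and each column a library, with P16 left of GFP and 48 h left of 0 h; colour gives log2(CPM + 0.5) minus the mean of the GFP mice at 0 h. Most rows are blue in all 6 libraries at 48 h, darkest for Csad, Cdo1 and Tdo2, while Nags is red in all 6.

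Most of the set fell after hepatectomy in both arms. In P16 mice 32 of 47 genes fell, against 19% of all genes tested, and 1 rose, against 19.6%. In GFP mice 34 fell, against 16.4%, and 3 rose, against 17.2%. The median log2 fold change of the 47 was -0.66 in P16 mice, with 0.0047 over all genes, and -0.69 in GFP mice, with -0.011 over all genes. In bulk RNA, fewer cells that express a gene and less of its RNA per cell cannot be told apart. The same 29 genes fell in both arms, and Nags rose in both. Of 7 general hepatocyte markers, 3 fell in P16 mice and 5 in GFP mice, with medians of -0.35 and -0.59. Markers of other liver cells moved too. Of 8 stellate cell markers 4 rose in P16 mice (median 1.49) and 3 in GFP mice (median 0.59), and their summed level was 37.5 to 60.1 CPM at 48 h and 24.4 to 43.7 CPM at 0 h in P16 mice, and 39.8 to 54.7 CPM at 48 h and 29.9 to 52 CPM at 0 h in GFP mice. Of 12 macrophage markers 2 rose in P16 mice (median 1.14) and 1 in GFP mice (median -0.55), with sums of 67.5 to 89.4 CPM at 48 h and 27.3 to 40.4 CPM at 0 h in P16 mice, and 42.4 to 102 CPM at 48 h and 32.8 to 200.3 CPM at 0 h in GFP mice. Of 10 endothelial markers 0 rose in either arm, while 0 fell in P16 mice (median 0.17) and 2 in GFP mice (median -0.64). Their sums were 54.1 to 88.1 CPM at 48 h and 58 to 67.5 CPM at 0 h in P16 mice. GFP mice had sums of 48.7 to 79.8 CPM at 48 h and 78.2 to 146 CPM at 0 h. No stellate, macrophage or endothelial marker was at 0 in any library. Mitochondrial genes held 9.17 to 14.3% of reads at 48 h and 12.9 to 22.6% at 0 h in P16 mice, and 7.77 to 9.95% at 48 h and 14.5 to 21.4% at 0 h in GFP mice. Of 12 genes induced by fasting, 6 fell and 0 rose in P16 mice (median -0.90), as in GFP mice (median -1.27). Their mean log2 score, set to 0 at the GFP mice at 0 h, was -1.04 to -0.81 at 48 h in P16 mice. It was -0.35 to 0.067 there at 0 h, and -1.17 to -0.83 at 48 h and -0.29 to 0.58 at 0 h in GFP mice. Of 10 genes induced by feeding, 1 rose and 3 fell in P16 mice (median 0.35), and 3 rose and 3 fell in GFP mice (median 0.50). Of 13 clock genes 2 rose and 3 fell in P16 mice, and 5 rose and 3 fell in GFP mice. The part of these in the result was not tested. With GFP mouse 2 at 0 h and P16 mouse 2 at 48 h both left out, 34 genes fell in P16 mice and 36 in GFP mice.

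These directions rest on scaling between libraries. Without TMM, on library totals alone, the median of all genes moved to 0.25 in P16 mice and 0.49 in GFP mice. The set's median stayed 0.70 and 0.68 below that of all genes, at -0.44 and -0.20. With totals alone 25 genes fell and 4 rose in P16 mice, and 17 fell and 9 rose in GFP mice. In P16 mice the falls of Gpt, Gpt2, Uroc1, Agxt2, Cbs, Cth and Aass were then no longer called. In GFP mice this held for Arg1, Got1, Tat, Hgd, Gstz1, Fah, Kynu, Haao, Uroc1, Ftcd, Gldc, Shmt1, Cbs, Cth, Bckdha, Bcat2 and Aass. The changes below are therefore relative to most other genes.

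**Figure D2:**
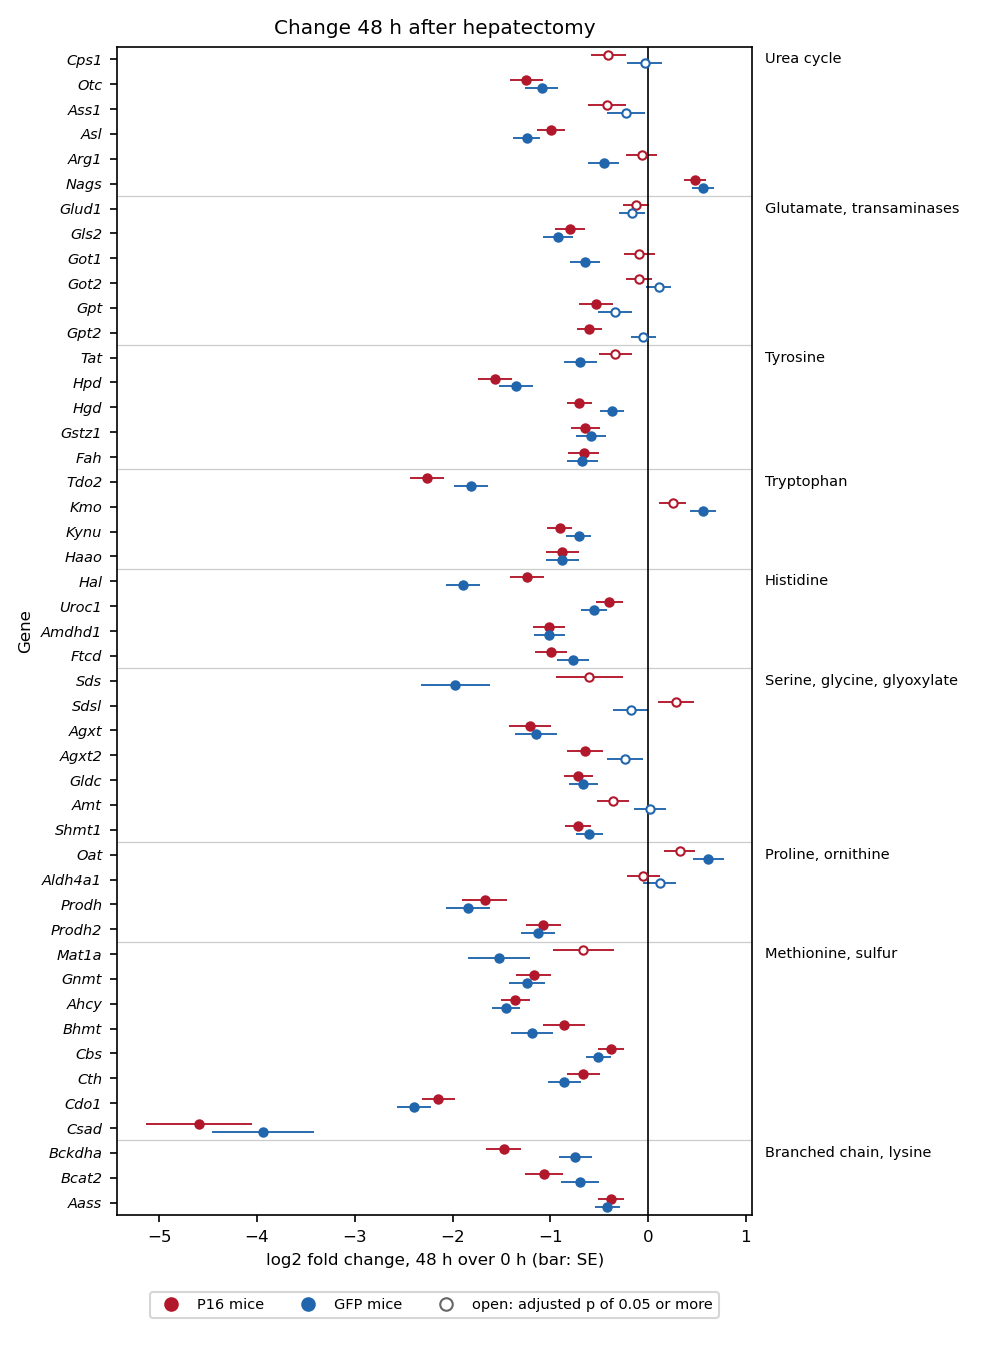
Points give the log2 fold change of 48 h over 0 h for each gene, P16 mice in red above GFP mice in blue, with bars of 1 SE and open points where the adjusted p was 0.05 or more. Csad lies farthest left, at -4.60 in P16 mice and -3.94 in GFP mice, while Glud1, Got2 and Aldh4a1 lie close to 0.

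The urea cycle did not move as a unit: 2 of its 6 genes fell and 1 rose in P16 mice, and 3 fell and 1 rose in GFP mice. Cps1 (chromosome 1, 67123026 to 67231259, plus strand, GRCm38), carbamoyl phosphate synthetase, makes the entry step of the cycle in mitochondria. In P16 mice Cps1 had 2647, 2016 and 1725 CPM at 48 h, against 2669, 2926 and 2872 CPM at 0 h. GFP mice had 2399, 2338 and 2935 CPM of Cps1 at 48 h, against 3169.5, 2103 and 2589 CPM at 0 h. The times did not overlap in P16 mice and overlapped in GFP mice. The log2 fold change of Cps1 was -0.41 in P16 mice (SE 0.178, adjusted p = 0.0798) and -0.04 in GFP mice (SE 0.178, adjusted p = 0.903), so neither passed. On library totals alone Cps1 was called higher at 48 h in GFP mice, at 0.47 (edgeR adjusted p = 0.0324). In P16 mice the fall passed under 2 of 20 alternatives, with adjusted p over all 20 of 0.0227 to 0.499. These left out GFP mouse 2 at 0 h or P16 mouse 1 at 48 h.

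Nags (chromosome 11, 102145513 to 102149477, plus strand), which makes the N-acetylglutamate that Cps1 needs, was the single urea cycle gene to rise. It had 112, 114 and 108 CPM at 48 h in P16 mice, against 68.5, 86.8 and 84.3 CPM at 0 h. In GFP mice Nags had 109, 116 and 105 CPM at 48 h, against 74.2, 75.1 and 74.3 CPM at 0 h. No library at 48 h overlapped one at 0 h. The log2 fold change of Nags was 0.48 in P16 mice (SE 0.115, adjusted p = 0.00276) and 0.56 in GFP mice (SE 0.115, adjusted p = 0.000907), and both calls were kept under all 20 alternative settings.

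Otc (chromosome X, 10252305 to 10321024, plus strand), ornithine transcarbamylase, joins carbamoyl phosphate to ornithine. It had 283, 292 and 250.1 CPM at 48 h in P16 mice, against 624, 769.8 and 567 CPM at 0 h. In GFP mice Otc had 254, 242 and 244 CPM at 48 h, against 651, 383 and 541 CPM at 0 h. The 6 libraries at 48 h were all below the 6 at 0 h. Otc fell by 1.25 on the log2 scale in P16 mice (SE 0.168, adjusted p = 1.18e-05) and by 1.09 in GFP mice (SE 0.168, adjusted p = 6.06e-05).

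The next enzymes of the cycle parted. Ass1 (chromosome 2, 31470207 to 31520672, plus strand), which joins citrulline to aspartate, had 3851, 3112 and 2594 CPM at 48 h in P16 mice, against 3487, 5350.2 and 3946 CPM at 0 h. In GFP mice Ass1 had 3652, 3749 and 4021 CPM at 48 h, against 5346, 3471 and 4522 CPM at 0 h. The times overlapped in both arms, and Ass1 passed in neither, at -0.42 in P16 mice (SE 0.193, adjusted p = 0.094) and -0.22 in GFP mice (SE 0.192, adjusted p = 0.401). On library totals alone it was 0.28 in GFP mice. In P16 mice Ass1 passed under 2 of 20 alternatives, the same as for Cps1, with adjusted p over all 20 of 0.0453 to 0.484. Asl (chromosome 5, 130011258 to 130029247, minus strand), which then releases arginine and fumarate, had 313, 349 and 248 CPM at 48 h in P16 mice, against 617, 613 and 579 CPM at 0 h. Asl in GFP mice had 329, 294 and 364 CPM at 48 h, against 783, 815 and 739 CPM at 0 h. With no overlap in either arm, Asl fell by 0.99 in P16 mice (SE 0.14, adjusted p = 1.94e-05) and by 1.24 in GFP mice (SE 0.141, adjusted p = 1.79e-06). Arg1, the liver arginase that frees urea, was -0.07 in P16 mice (adjusted p = 0.775) and fell by 0.45 in GFP mice (adjusted p = 0.0349), with signs turned to 0.18 and 0.044 on library totals alone. The Arg1 call in GFP mice was lost without GFP mouse 1 at 0 h or any 1 GFP mouse at 48 h, with adjusted p up to 0.14.

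**Figure D3:**
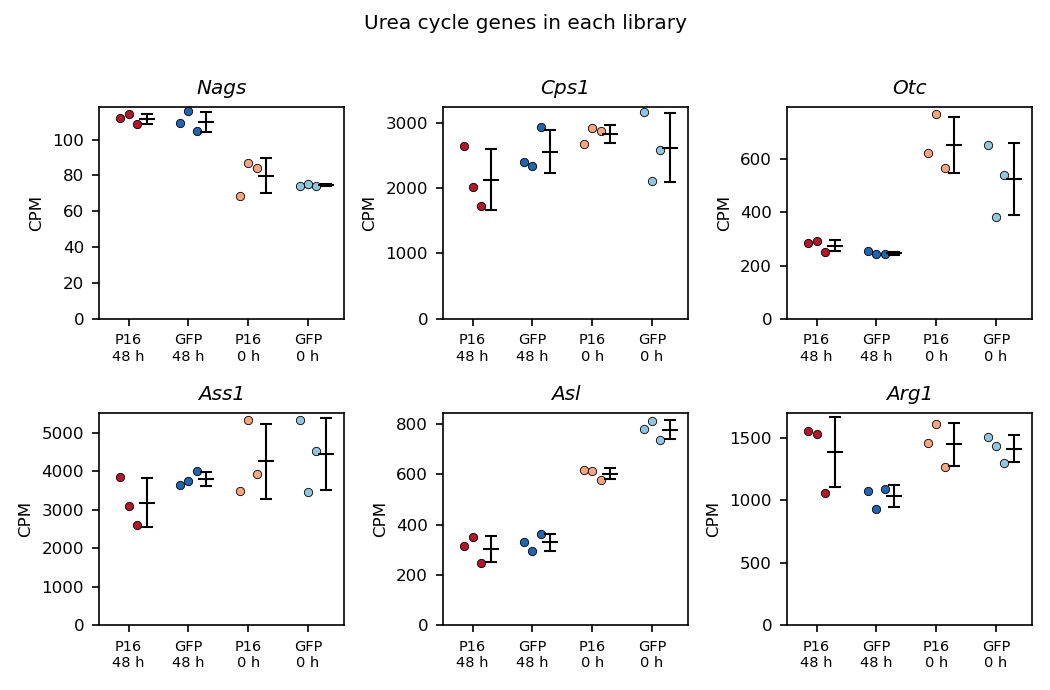
CPM of the 6 urea cycle genes in each library, with bars for the mean ± SD of 3 mice and each axis starting at 0. Otc and Asl separate the times in both arms with lower values at 48 h, Nags separates them with higher values at 48 h, and Ass1 overlaps.

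Promoter windows from RefSeq (GRCm38.p6, the 250 bases before the start) were matched for 36 of the 47 genes. Those of Hal and Tdo2, which lead the falls in histidine and tryptophan breakdown, and of Nags and Oat, which rose in GFP mice, are shown for comparison. They lie at chr10:93488518-93488767 (plus strand) for Hal and chr3:81975729-81975978 (minus strand, 474 bases from the GENCODE start) for Tdo2. Nags lies at chr11:102145263-102145512 (plus strand) and Oat at chr7:132576399-132576648 (minus strand). Each runs 5′ to 3′, and capitals mark matches on either strand to a C/EBP motif (TTGCNNAA), a glucocorticoid receptor motif (ACANNNTGT) or a TATA box (TATAAA).
Hal: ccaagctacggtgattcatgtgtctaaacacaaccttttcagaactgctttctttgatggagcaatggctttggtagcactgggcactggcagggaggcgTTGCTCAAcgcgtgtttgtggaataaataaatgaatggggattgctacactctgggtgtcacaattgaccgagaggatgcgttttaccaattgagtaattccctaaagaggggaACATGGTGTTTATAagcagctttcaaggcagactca
Tdo2: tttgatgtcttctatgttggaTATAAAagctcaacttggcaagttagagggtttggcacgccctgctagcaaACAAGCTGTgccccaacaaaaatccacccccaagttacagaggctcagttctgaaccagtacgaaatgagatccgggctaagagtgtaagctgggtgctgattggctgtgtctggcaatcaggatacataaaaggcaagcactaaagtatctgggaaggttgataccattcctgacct
Nags: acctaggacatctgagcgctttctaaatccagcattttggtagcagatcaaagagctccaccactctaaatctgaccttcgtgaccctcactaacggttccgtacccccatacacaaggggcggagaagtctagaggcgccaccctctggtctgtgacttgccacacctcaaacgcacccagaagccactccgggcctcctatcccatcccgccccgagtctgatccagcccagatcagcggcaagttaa
Oat: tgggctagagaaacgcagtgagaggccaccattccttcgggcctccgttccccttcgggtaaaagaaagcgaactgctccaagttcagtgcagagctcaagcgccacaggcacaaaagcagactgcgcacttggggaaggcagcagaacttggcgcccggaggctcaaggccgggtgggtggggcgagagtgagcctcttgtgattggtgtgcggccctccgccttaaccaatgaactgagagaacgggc
The glucocorticoid receptor motif was in 8.33% of the set's windows (Bhmt, Hal and Tdo2), against 5.84% of 32851 windows in all. In Hal it starts 36 bases before the start and its last base is shared with a TATA box that starts 28 bases before it. The C/EBP motif was in 11.1% of the set's windows, against 9.56% of all, and the TATA box in 16.7%, against 12.4%. TGACG, part of the cAMP response element, was in 13.9%, against 17.8%, and the whole element TGACGTCA in 0 of 36, against 1.55% of all. The HNF4 motif CAAAGTCCA was found in 1 window, Agxt2 (2.78%, against 0.384%), and the FOXA motif TGTTTAC and the E2F motifs TTTCGCGC and TTTGGCGC in none (3.17% and 0.654% of all). The windows of Nags and Oat hold none of these motifs, and a match or its absence is a description of these windows.

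Among 6 genes of glutamate and of the transaminases, which pass amino groups between amino acids and keto acids, 3 fell in P16 mice and 2 in GFP mice. Gls2, the liver glutaminase, had 252, 194 and 167 CPM at 48 h in P16 mice, against 339.8, 407 and 316 CPM at 0 h. GFP mice had 226, 241 and 241 CPM of Gls2 at 48 h, against 497, 393 and 451 CPM at 0 h. The times did not overlap, and Gls2 fell by 0.80 in P16 mice (SE 0.152, adjusted p = 0.000447) and by 0.92 in GFP mice (SE 0.153, adjusted p = 0.000128). Glud1, which frees ammonia from glutamate, and Got2, the mitochondrial aspartate aminotransferase, passed in neither arm and lay between -0.16 and 0.11. Gpt, the cytosolic alanine aminotransferase, fell by 0.53 in P16 mice (adjusted p = 0.0195) and was -0.34 in GFP mice (adjusted p = 0.14; 0.17 on library totals alone). The Gpt call was lost without P16 mouse 2 at 0 h or P16 mouse 3 at 48 h, with adjusted p up to 0.114. The aminotransferases Got1 and Gpt2 are described with the comparison of the arms.

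All 4 genes of histidine breakdown fell in both arms. Hal (chromosome 10, 93488768 to 93519304, plus strand), histidine ammonia-lyase, opens the pathway. It had 221, 212 and 176 CPM at 48 h in P16 mice, against 431, 592 and 417 CPM at 0 h. In GFP mice Hal had 169, 151 and 139.9 CPM at 48 h, against 692, 442 and 578 CPM at 0 h. The times did not overlap. Hal fell 2.36-fold in P16 mice (log2 change -1.24, SE 0.172, adjusted p = 1.57e-05) and 3.72-fold in GFP mice (-1.90, SE 0.175, adjusted p = 1.35e-07). Amdhd1, imidazolonepropionase, had 167, 158 and 154 CPM at 48 h in P16 mice, against 312, 355 and 300.3 CPM at 0 h. Amdhd1 in GFP mice had 148, 143 and 133 CPM at 48 h, against 353, 199 and 301 CPM at 0 h. It too showed no overlap, and it fell by 1.01 in P16 mice (SE 0.162, adjusted p = 7.23e-05) and by 1.01 in GFP mice (SE 0.162, adjusted p = 8.99e-05). Uroc1, urocanate hydratase, fell by 0.40 and Ftcd, which passes the one-carbon unit to folate, by 0.99 in P16 mice, with falls of 0.55 and 0.77 in GFP mice. The Uroc1 call in P16 mice was lost without P16 mouse 1 at 0 h or P16 mouse 1 or 3 at 48 h, with adjusted p up to 0.136.

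In tyrosine breakdown, which ends in fumarate and acetoacetate, 4 of 5 genes fell in P16 mice and 5 of 5 in GFP mice. Hpd, 4-hydroxyphenylpyruvate dioxygenase, had 810.4, 1081 and 703 CPM at 48 h in P16 mice, against 2327, 2942 and 2394 CPM at 0 h. GFP mice held 938, 848 and 958 CPM of Hpd at 48 h, against 2629, 1980.2 and 2399.9 CPM at 0 h. The groups stood well apart, and Hpd fell by 1.56 in P16 mice (SE 0.172, adjusted p = 1.06e-06) and by 1.35 in GFP mice (SE 0.171, adjusted p = 6.86e-06). Fah, fumarylacetoacetase, the last enzyme, had 508, 538 and 403 CPM at 48 h in P16 mice, against 707, 899 and 682 CPM at 0 h. For Fah in GFP mice the values were 444, 429 and 409.8 CPM at 48 h, against 739, 556 and 749 CPM at 0 h. No values overlapped, and Fah fell by 0.66 in P16 mice (SE 0.156, adjusted p = 0.00262) and by 0.67 in GFP mice (SE 0.156, adjusted p = 0.00267). Hgd and Gstz1, the steps between, fell by 0.70 and 0.64 in P16 mice and by 0.37 and 0.58 in GFP mice, where Hgd turned to 0.13 on library totals alone. The Hgd call in GFP mice was also lost without GFP mouse 1 or 3 at 0 h or any 1 GFP mouse at 48 h, with adjusted p up to 0.103. Tat, the tyrosine aminotransferase that opens the pathway, was -0.34 in P16 mice (adjusted p = 0.126) and fell by 0.69 in GFP mice (adjusted p = 0.00394).

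In tryptophan breakdown along the kynurenine pathway 3 of 4 genes fell in each arm. Tdo2 (chromosome 3, 81957090 to 81976202, minus strand), the dioxygenase that opens the pathway, had 373, 325 and 339 CPM at 48 h in P16 mice, against 1619.8, 1847 and 1494 CPM at 0 h. In GFP mice Tdo2 had 564, 333 and 437 CPM at 48 h, against 1482, 1662 and 1543 CPM at 0 h. Without overlap in either arm, it fell 4.79-fold in P16 mice (log2 change -2.26, SE 0.172, adjusted p = 1.07e-08) and 3.51-fold in GFP mice (-1.81, SE 0.17, adjusted p = 1.65e-07). Kynu, kynureninase, had 107, 97 and 92.2 CPM at 48 h in P16 mice, against 195, 180.2 and 180.3 CPM at 0 h. Kynu in GFP mice had 115, 99.7 and 111 CPM at 48 h, against 176, 201 and 156 CPM at 0 h. It fell by 0.91 in P16 mice (SE 0.124, adjusted p = 1.4e-05) and by 0.71 in GFP mice (SE 0.123, adjusted p = 0.000202), again with no overlap. Haao, a later dioxygenase, fell by 0.88 in each arm. Kmo, kynurenine 3-monooxygenase, which lies between Tdo2 and Haao, was 0.25 in P16 mice (adjusted p = 0.156) and rose by 0.56 in GFP mice (adjusted p = 0.004), where it had 429, 405 and 315 CPM at 48 h, against 264, 251 and 265 CPM at 0 h.

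Of 7 genes of serine, glycine and glyoxylate, 4 fell in P16 mice and 4 in GFP mice. Agxt, the peroxisomal enzyme that turns glyoxylate to glycine, had 188, 254 and 168 CPM at 48 h in P16 mice, against 440.2, 561 and 404 CPM at 0 h. Agxt in GFP mice had 178, 185 and 172 CPM at 48 h, against 495, 256 and 435 CPM at 0 h. The times stood apart, and Agxt fell by 1.21 in P16 mice (SE 0.214, adjusted p = 0.000385) and by 1.15 in GFP mice (SE 0.214, adjusted p = 0.00067). Gldc, the decarboxylase of the glycine cleavage system, had 132, 80.7 and 103 CPM at 48 h in P16 mice, against 164, 177 and 175 CPM at 0 h. In GFP mice Gldc had 125, 128 and 113 CPM at 48 h, against 202, 195 and 182 CPM at 0 h. It fell by 0.71 in P16 mice (SE 0.146, adjusted p = 0.000787) and by 0.66 in GFP mice (SE 0.145, adjusted p = 0.00169), without overlap. Amt, another part of the same cleavage system, passed in neither arm (-0.36, adjusted p = 0.0944 in P16 mice, and 0.02, adjusted p = 0.951 in GFP mice). Shmt1, the cytosolic serine hydroxymethyltransferase, fell by 0.72 in P16 mice and 0.60 in GFP mice. Sds, serine dehydratase, which feeds serine into gluconeogenesis, was -0.60 in P16 mice (SE 0.343, adjusted p = 0.2) and fell 3.93-fold in GFP mice (log2 change -1.97, SE 0.353, adjusted p = 0.0019).

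Of 4 genes of proline and ornithine, 2 fell in P16 mice, and 2 fell and 1 rose in GFP mice. Prodh, proline dehydrogenase, had 66.8, 75.7 and 46.2 CPM at 48 h in P16 mice, against 163, 265 and 173 CPM at 0 h. GFP mice had 61.3, 48.3 and 66.8 CPM of Prodh at 48 h, against 219, 166 and 249 CPM at 0 h. The times did not overlap, and Prodh fell by 1.67 in P16 mice (SE 0.226, adjusted p = 4.69e-05) and by 1.84 in GFP mice (SE 0.227, adjusted p = 2.31e-05). Prodh2, which acts on hydroxyproline, had 134, 205 and 147 CPM at 48 h in P16 mice, against 387, 318 and 316 CPM at 0 h. Prodh2 in GFP mice had 126, 129 and 111 CPM at 48 h, against 269, 206 and 322 CPM at 0 h. It fell by 1.07 in P16 mice (SE 0.174, adjusted p = 9.52e-05) and by 1.12 in GFP mice (SE 0.174, adjusted p = 7e-05), with no overlap. Oat (chromosome 7, 132557478 to 132576398, minus strand), ornithine aminotransferase, had 773, 817 and 670.3 CPM at 48 h in P16 mice, against 677, 659.9 and 469 CPM at 0 h. In GFP mice Oat had 1094, 901 and 1199 CPM at 48 h, against 723, 641 and 724 CPM at 0 h. It rose by 0.61 in GFP mice (SE 0.158, adjusted p = 0.00572), where the times stood apart, and was 0.32 in P16 mice (SE 0.158, adjusted p = 0.114), where they overlapped. Aldh4a1, which completes proline oxidation, passed in neither arm.

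The methionine and sulfur genes held the largest fall of the set, that of Csad: 7 of 8 fell in P16 mice and 8 of 8 in GFP mice, with medians of -1.02 and -1.35. Csad (chromosome 15, 102176999 to 102204724, minus strand), which makes hypotaurine on the way to taurine, had 21.3, 12.5 and 25.2 CPM at 48 h in P16 mice, against 529, 220.1 and 682 CPM at 0 h. GFP mice had 34.6, 15.4 and 35.3 CPM of Csad at 48 h, against 559, 369 and 382 CPM at 0 h. Every library at 48 h lay far below every library at 0 h. Csad fell 24.2-fold in P16 mice (log2 change -4.60, SE 0.543, adjusted p = 0.000179) and 15.3-fold in GFP mice (-3.94, SE 0.524, adjusted p = 0.000439).

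Cdo1, cysteine dioxygenase, supplies the substrate of Csad. It had 369, 418 and 327 CPM at 48 h in P16 mice, against 1694, 1831 and 1407 CPM at 0 h. In GFP mice Cdo1 had 399.9, 278 and 339 CPM at 48 h, against 1983, 1836 and 1518 CPM at 0 h. The times did not overlap, and Cdo1 fell 4.43-fold in P16 mice (log2 change -2.15, SE 0.17, adjusted p = 1.78e-08) and 5.25-fold in GFP mice (-2.39, SE 0.172, adjusted p = 4.94e-09). Ahcy, which clears S-adenosylhomocysteine, had 503, 476 and 407 CPM at 48 h in P16 mice, against 1095, 1336 and 1118 CPM at 0 h. Ahcy in GFP mice had 613, 577 and 627 CPM at 48 h, against 1539, 1922 and 1526 CPM at 0 h. Again no values overlapped, with falls of 1.36 in P16 mice (SE 0.145, adjusted p = 7.3e-07) and 1.46 in GFP mice (SE 0.145, adjusted p = 3.68e-07). Gnmt and Bhmt, which use S-adenosylmethionine and remethylate homocysteine, fell by 1.17 and 0.86 in P16 mice and by 1.24 and 1.18 in GFP mice. Cbs and Cth, the transsulfuration enzymes that lead to cysteine, fell by 0.38 and 0.66 in P16 mice and by 0.51 and 0.86 in GFP mice. The Cbs call in P16 mice was lost without any 1 P16 mouse at 0 h or P16 mouse 3 at 48 h, with adjusted p up to 0.153. Mat1a, which makes S-adenosylmethionine in adult liver, was -0.66 in P16 mice (SE 0.309, adjusted p = 0.114) and fell by 1.52 in GFP mice (SE 0.315, adjusted p = 0.00284). In P16 mice the fall of Mat1a passed under 4 of 20 alternatives, with adjusted p over all 20 of 0.0143 to 0.263. These were DESeq2, limma-voom, leaving out P16 mouse 2 at 48 h, and leaving out both that library and GFP mouse 2 at 0 h.

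All 3 genes of branched-chain amino acid and lysine breakdown fell in both arms. Bckdha (chromosome 7, 25629946 to 25658981, minus strand), a subunit of the branched-chain keto acid dehydrogenase, had 17, 9.86 and 12.7 CPM at 48 h in P16 mice, against 33.7, 35.7 and 41.2 CPM at 0 h. GFP mice held 23, 23.1 and 21.5 CPM of Bckdha at 48 h, against 34.6, 45.2 and 33.4 CPM at 0 h. The times stood apart, and Bckdha fell by 1.48 in P16 mice (SE 0.175, adjusted p = 2.59e-06) and by 0.75 in GFP mice (SE 0.17, adjusted p = 0.00228). Bcat2, the mitochondrial branched-chain aminotransferase, had 13.7, 18.9 and 17.7 CPM at 48 h in P16 mice, against 41.9, 26.6 and 36.9 CPM at 0 h. Bcat2 in GFP mice had 15.1, 12.9 and 11.7 CPM at 48 h, against 26.4, 16.7 and 21.5 CPM at 0 h. It fell by 1.06 in P16 mice (SE 0.194, adjusted p = 0.000281) and by 0.70 in GFP mice (SE 0.195, adjusted p = 0.0099), without overlap. Aass, which opens lysine breakdown, fell by 0.38 in P16 mice and 0.42 in GFP mice, where it turned to 0.079 on library totals alone. The Bcat2 call in GFP mice was lost without GFP mouse 1 at 0 h (adjusted p = 0.0639) or GFP mouse 3 at 48 h (adjusted p = 0.0504). The Aass calls were lost without P16 mouse 2 at 0 h or 3 at 48 h in P16 mice (adjusted p up to 0.139), and without GFP mouse 1 at 0 h or 2 at 48 h in GFP mice (adjusted p up to 0.0824).

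In the regenerating liver the arms were set side by side at 48 h, to ask how P16 bears on these genes. Of the 47 genes 2 were called lower, against 1.04% of all genes, and 0 higher, against 1.24%, by edgeR. DESeq2 called 3 lower and 1 higher, and limma-voom 2 lower and 0 higher. At an unadjusted p under 0.05 there were 11 (23.4%), against 17.5% of all genes. The median log2 fold change was 0.019, beside -0.0025 over all genes. On library totals alone the median of all genes was -0.22 and 7 of the 47 were called lower. With GFP mouse 2 at 0 h and P16 mouse 2 at 48 h both left out, Gpt2 was still called and Bckdha was not.

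Gpt2 (chromosome 8, 85492576 to 85527560, plus strand), the mitochondrial alanine aminotransferase, had 187, 153 and 160.2 CPM in P16 mice at 48 h, against 255, 284 and 239 CPM in GFP mice at 48 h. At 0 h it had 228, 269.6 and 263 CPM in P16 mice, against 288, 242 and 274 CPM in GFP mice. The arms did not overlap at 48 h and overlapped at 0 h. At 48 h Gpt2 was lower in P16 mice by a log2 fold change of -0.64 (SE 0.129, adjusted p = 0.0217). Bckdha, with the values given above, was lower in P16 mice at 48 h by -0.77 (SE 0.174, adjusted p = 0.0317), and all 3 P16 libraries lay below all 3 GFP libraries. Neither call survived the loss of any 1 GFP library at 48 h or of P16 mouse 2 or 3 at 48 h, with adjusted p up to 0.0997 for Gpt2 and 0.18 for Bckdha. The exons of Bckdha share 61.7% of their bases with B3gnt8 on the opposite strand, a gene of 5 to 36 reads a library that was not called, and whether reads were counted by strand was not stated.

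Other members had low p between the arms at 48 h without passing in edgeR as set out above. Oat had 670.3 to 817 CPM in P16 mice and 901 to 1199 CPM in GFP mice (log2 change -0.50, SE 0.158, adjusted p = 0.0965). It passed under 5 of 20 alternatives, which were library totals alone, no filter on low counts, DESeq2, only the groups compared, and leaving out GFP mouse 2 at 0 h, with adjusted p over all 20 of 0.00968 to 0.352. Ahcy was -0.39 (SE 0.143, adjusted p = 0.15), and it passed on library totals alone (adjusted p over the alternatives 0.022 to 0.375). Hal was 0.41 (SE 0.17, adjusted p = 0.216). The arms did not overlap for Oat, Ahcy and Hal, nor for Prodh2 and Hgd below. How many of all genes tested did the same was not counted. Sds, whose arms overlapped, was 0.87 (SE 0.347, adjusted p = 0.23), and it passed with DESeq2 and without P16 mouse 3 (adjusted p over the alternatives 0.0268 to 0.666). Arg1 was 0.42 (adjusted p = 0.165) and Prodh2 0.41 (adjusted p = 0.22), and both passed under no alternative. Hgd was -0.28 (adjusted p = 0.241) and Tdo2 -0.36 (adjusted p = 0.254), and both passed on library totals alone. Got1 at 48 h is given below.

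At 0 h the comparison asks what differs in the resting liver. Here 1 of the 47 genes was called lower, against 0.0979% of all genes, and 0 higher, against 0.122%, by edgeR. DESeq2 called 2 lower and limma-voom 1, and both called 0 higher. At an unadjusted p under 0.05 there were 8 (17%), against 13.5% of all. Got1 (chromosome 19, 43499752 to 43524605, minus strand), the cytosolic aspartate aminotransferase, had 144, 142 and 118 CPM in P16 mice at 0 h, against 256, 248 and 274 CPM in GFP mice at 0 h. At 48 h it had 159, 126 and 95.1 CPM in P16 mice, against 174, 172 and 152 CPM in GFP mice. The arms stood apart at 0 h and overlapped at 48 h. Got1 was lower in P16 mice at 0 h by -0.94 (SE 0.156, adjusted p = 0.0159), and at 48 h the value was -0.39 (SE 0.154, adjusted p = 0.19). The difference at 48 h passed on library totals alone and without P16 mouse 1 at 48 h (adjusted p over the 20 alternatives 0.0316 to 0.526). Without GFP mouse 3 or P16 mouse 3 at 0 h the call at 0 h was lost, with adjusted p up to 0.0977. After hepatectomy Got1 was -0.09 in P16 mice (adjusted p = 0.684) and fell by 0.64 in GFP mice (adjusted p = 0.00344), the comparisons sharing the libraries of each group. The response in P16 mice minus that in GFP mice was 0.55 and did not pass (edgeR adjusted p = 0.316).

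Below Got1, the lowest p at 0 h were those of Bcat2 at 0.71 (SE 0.193, adjusted p = 0.147), Ahcy at -0.49 (SE 0.143, adjusted p = 0.174) and Cth at -0.54 (SE 0.168, adjusted p = 0.189), none of which passed in edgeR. Ahcy passed with DESeq2, and Bcat2 without a filter on low counts and without GFP mouse 1 at 0 h. Adjusted p over the 20 alternatives was 0.0232 to 0.408 for Ahcy and 0.0164 to 0.385 for Bcat2. All 12 macrophage markers had lower values in P16 mice at 0 h (median log2 fold change -1.67, 11 with an unadjusted p under 0.05), with sums of 27.3 to 40.4 CPM in P16 mice and 32.8 to 200.3 CPM in GFP mice. All 10 endothelial markers had lower values too (median -0.69, 6 with an unadjusted p under 0.05), with sums of 58 to 67.5 CPM in P16 mice and 78.2 to 146 CPM in GFP mice. None of either list passed after adjustment, and none was at 0 in any library. Without GFP mouse 2 at 0 h, the library with the highest macrophage sum, Got1 was -0.97 and still called. That fit kept GFP mouse 3 at 0 h, with a macrophage sum of 77 CPM, so it does not level the markers between the arms. A mean score of 13 clock genes was 0.33 to 1.01 in P16 mice and -0.40 to 0.51 in GFP mice at 0 h. Single clock genes ran from -1.66 to 4.20 between the arms at 0 h, 9 above 0 and 4 below, so they partly offset in the mean. None of the 13 passed, and 3 had an unadjusted edgeR p under 0.05. A score of 12 fasting-induced genes was -0.35 to 0.067 in P16 mice and -0.29 to 0.58 in GFP mice at 0 h. For 10 feeding-induced genes the score was 0.41 to 0.91 in P16 mice and -0.58 to 0.44 in GFP mice at 0 h. Of these genes 9 were above 0 between the arms and 1 below, and 0 passed. The part of the markers and scores in the differences at 0 h, that of Got1 included, was not tested. The plot of the log2 fold changes between the arms shows all 47 at both times.

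**Figure D4:**
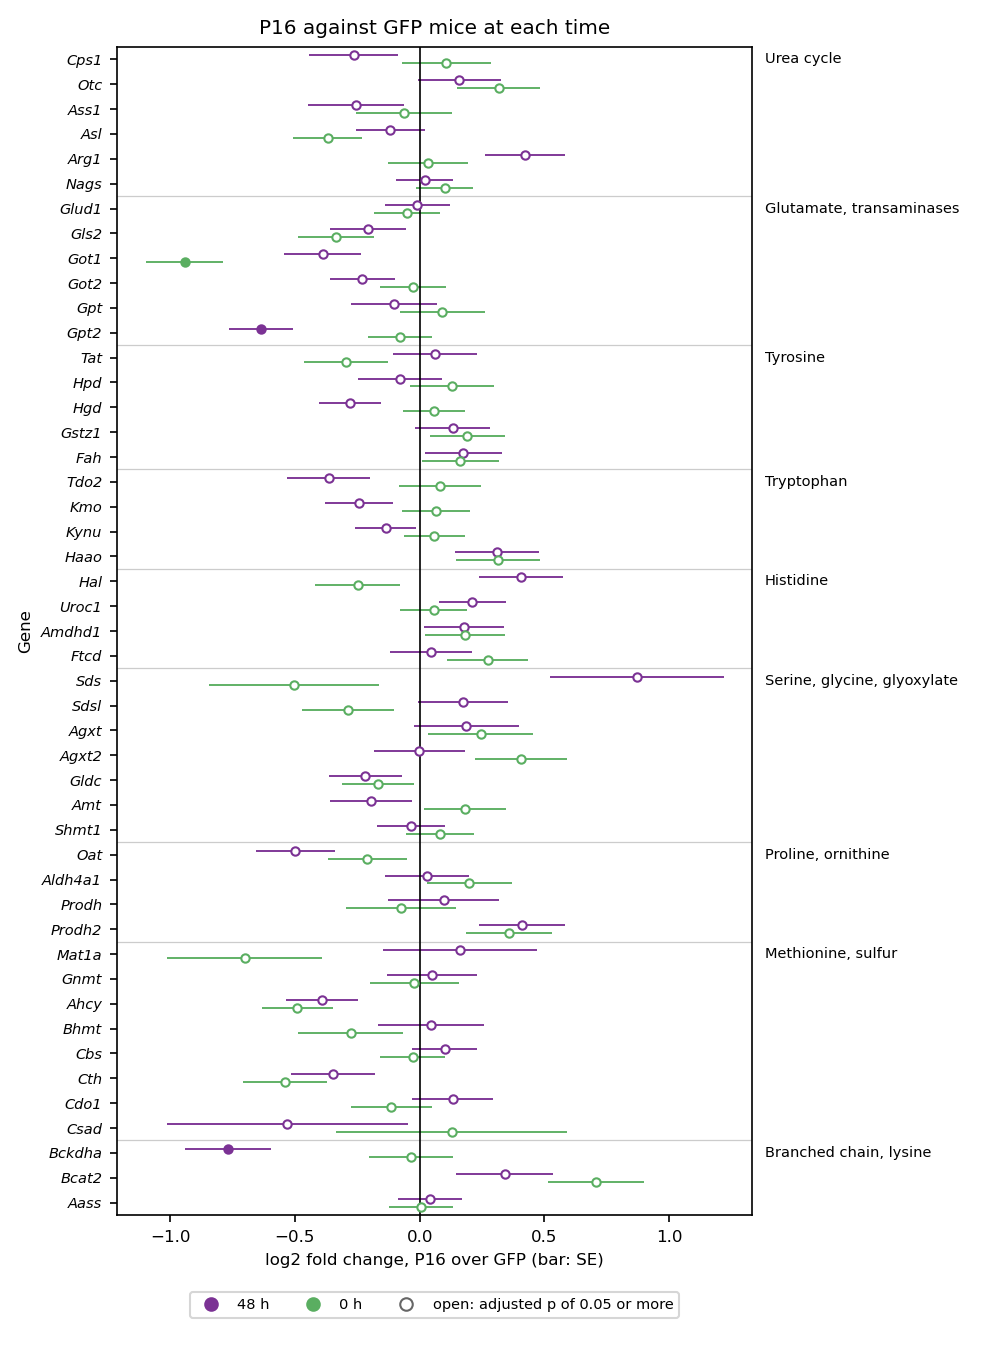
Points give the log2 fold change of P16 over GFP mice for each gene, 48 h in purple above 0 h in green, with bars of 1 SE and open points where the adjusted p was 0.05 or more. The filled points are Got1 at 0 h (-0.94) and Gpt2 (-0.64) and Bckdha (-0.77) at 48 h, all below 0.

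The hepatectomy response itself was compared between the arms by the interaction, the response in P16 mice minus that in GFP mice. Of the 47 genes 0 passed in edgeR, against 0.0326% of all genes higher and 0.0653% lower. DESeq2 called 1, Sds, and limma-voom 0, and 5 had an unadjusted p under 0.05 (10.6%), against 11.8% of all genes. The lowest p were those of Gpt2 (-0.56, SE 0.182, adjusted p = 0.209), Bckdha (-0.73, SE 0.242, adjusted p = 0.215) and Hal (0.65, SE 0.24, adjusted p = 0.277). Sds was 1.37 (SE 0.486, adjusted p = 0.306), and it passed with DESeq2 and without P16 mouse 3 at 48 h (adjusted p over 19 alternatives 0.0416 to 0.541). It had 40.4, 57.4 and 20.5 CPM in P16 mice at 48 h, against 22.7, 16.8 and 25 CPM in GFP mice at 48 h. At 0 h Sds had 73.1, 63.5 and 42.4 CPM in P16 mice and 99.9, 73.3 and 80.6 CPM in GFP mice. For genes called in 1 arm, such as Mat1a, Tat, Kmo, Got1 and Gpt, a difference between the arms was not shown by this test.

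**Figure D5:**
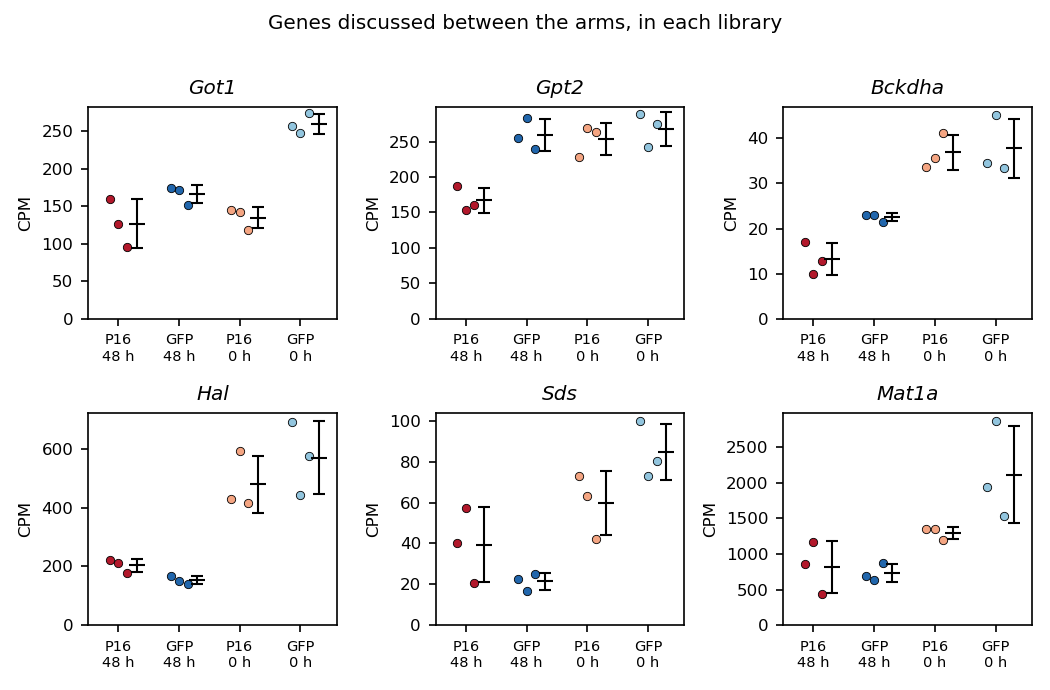
CPM in each library for 6 genes, with bars for the mean ± SD of 3 mice and each axis starting at 0. Got1 stands lower in P16 than in GFP mice at 0 h, Gpt2 and Bckdha at 48 h, while Sds and Mat1a overlap between the arms at 48 h.

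Outside the set, 98 of 104 further genes of amino acid metabolism and mitochondrial transport were tested. After hepatectomy 51 fell in P16 mice, against 19% of all genes tested, and 13 rose, against 19.6%. In GFP mice 43 fell, against 16.4%, and 12 rose, against 17.2%. Among those that rose, Psph, which completes serine synthesis, averaged 28.7 ± 4.95 CPM at 48 h and 9.59 ± 1.91 CPM at 0 h in GFP mice (SD, n = 3 each; log2 fold change 1.57, edgeR adjusted p = 4.39e-06). Acmsd, which diverts tryptophan carbon from NAD synthesis, averaged 103 ± 15.6 CPM at 48 h and 47.9 ± 6.58 CPM at 0 h in GFP mice (1.11, edgeR adjusted p = 4.71e-06). Etnppl, a lyase of phosphoethanolamine, fell by 1.95 in P16 mice (adjusted p = 7.89e-06) and by 2.20 in GFP mice (adjusted p = 2.92e-06). Between the arms at 48 h 4 of the 98 were called, all higher in P16 mice, against 1.24% of all genes higher: P4ha1, a collagen prolyl hydroxylase, Aspg, an asparaginase, Gcat, of threonine breakdown, and Tstd1. Aspg averaged 199.5 ± 50.7 CPM in P16 mice and 91.3 ± 6.91 CPM in GFP mice (SD, n = 3 each; 1.13, edgeR adjusted p = 0.00892). Each of the 4 lost its call when some single libraries were left out. Over the 20 alternatives the call was lost in 6 for P4ha1, 3 for Aspg, 11 for Gcat and 8 for Tstd1, with adjusted p up to 0.185, 0.0768, 0.241 and 0.152.

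Some values carry limits of counting. Stretches of 50 bases are shared with gene copies for 74.1% of Ahcy (Gm4737), 55.3% of Ass1 (Gm5424) and 36% of Got2 (Gm10874). Gm4737 had 19 to 80 reads a library, and Gm10874 had 7 to 36. On the same strand, Aldh4a1 shares 32.5% of its exon bases with Gm21969, which had 0 reads in every library. Gcat shares 47.5% of its exon bases with another entry of that name, and Tstd1 23.1% with Usf1, also on the same strand. Bcat2 shares 15.9% of its exon bases with 0610005C13Rik on the opposite strand, which had 38.5 to 133 CPM and also fell, by 0.98 in P16 mice and 1.34 in GFP mice. Csad shares 7.26% with Zfp740, which fell by 0.73 in P16 mice (adjusted p = 0.00213), and Sds shares 21.3% with Plbd2. These values are uncertain to that extent.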

How the data were processed

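The authors' deposited table holds raw counts of reads per Ensembl gene, not normalized. Per the submitters' processing notes, genome build mm10 was used with STAR 2.5.0c, HTSeq, Picard, SAMtools and Trim Galore. The notes used here give no annotation release and no strand option. Rows that name no gene (3.62 to 9.8% of reads without a feature, 4.87 to 8.8% ambiguous) stayed out. A second sheet that repeats the counts without gene names was not used.

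Positions and exon lengths came from GENCODE vM21 (GRCm38), and promoters from RefSeq (GRCm38.p6). In R 4.3.3, edgeR 4.0.16 (TMM, filterByExpr, robust quasi-likelihood F test, 4 group means over 12 libraries) tested 12257 genes, with Benjamini-Hochberg adjustment over all of them. DESeq2 1.42.0 and limma 3.58.1 were alternatives, with those under the closing section. SE is the absolute log2 fold change over the square root of F. On simulated counts for the 48 h comparison of the arms, 200 of 12257 genes were changed, all drawn from above a floor on mean level. Of their changes, 82% of the 2-fold and 98% of the 4-fold ones were recovered, with 8 false calls. Figures used Python 3.11.15 and matplotlib 3.10.9.

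Libraries of a group were separate mice (log CPM correlations 0.950 to 0.981), and every pair differed by more than counting noise (chi-square per degree of freedom at least 15.6). Members and lists were chosen with earlier results of these data known. Per-library values are given for Cps1, Ass1, Got1, the 2 genes per pathway with the lowest p after hepatectomy in GFP mice, and genes called between the arms at either time or in the interaction or, where none was called, the 3 of lowest p. Per-library values of Nags, Csad, Oat, Sds and Kmo, and the promoters shown, were chosen after their values were seen.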

Additional observations from a re-analysis of the deposited data

How the results depend on the processing

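Each result was recomputed under 20 alternatives, 19 for the interaction. After hepatectomy, 26 of 33 calls in P16 mice and 20 of 37 in GFP mice were kept under all of them. On library totals alone, 6197 genes were called after hepatectomy in GFP mice (669 lower and 5528 higher), against 4117 with TMM (2006 lower and 2111 higher), and members were 17 lower and 9 higher with a median of -0.20. In P16 mice members higher were 4 and the median -0.44, with 1320 genes lower and 3639 higher, against 2333 and 2398 with TMM. Between the arms at 48 h totals alone gave 7 members lower, a median of -0.20 and 615 genes (65 higher and 550 lower, against 152 and 128 with TMM), and in the interaction 93 genes (8 higher and 85 lower, against 4 and 8) and a median of -0.29. Signs turned on totals alone in GFP mice for Cps1 (0.47), Ass1 (0.28), Arg1 (0.044), Glud1 (0.34), Gpt (0.17), Gpt2 (0.45), Hgd (0.13), Sdsl (0.32), Agxt2 (0.27) and Aass (0.079), and in P16 mice for Arg1 (0.18), Glud1 (0.12), Got1 (0.16), Got2 (0.15) and Aldh4a1 (0.19). Without a filter on low counts, genes called were 160 at 0 h (27 with it), 538 at 48 h (280 with it) and 173 in the interaction (12 with it), and 1 member was higher at 0 h. DESeq2 called 214, 707 and 227 genes, with 2 members lower at 0 h, 1 higher at 48 h and 1 higher in the interaction. limma-voom called 17 at 0 h and 1 in the interaction. With only the groups compared, 9 and 762 genes were called at 0 h and 48 h. With GFP mouse 2 at 0 h and P16 mouse 2 at 48 h both left out, 143 genes and 1 member lower were called at 48 h (median -0.061) and 24 genes in the interaction, and in GFP mice Amt was -0.15 and Aldh4a1 -0.10 after hepatectomy. With the replicate number as a block, 150 genes and 1 member lower were called at 48 h and 44 genes in the interaction; the numbers do not pair the mice, since same-numbered libraries deviated together with correlations of -0.048 to 0.057 and 5 of 12 were closest to their own number. Leaving out 1 library at a time, members lower ranged over 27 to 35 in P16 and 30 to 36 in GFP mice after hepatectomy, members higher over 1 to 2 and 3 to 3, their medians over -0.76 to -0.60 and -0.71 to -0.65, and genes called over 3894 to 5149 and 3021 to 4189. Between the arms members lower ranged over 0 to 3 at 48 h and 0 to 1 at 0 h, members higher over 0 to 1 at both, genes called over 10 to 661 and 4 to 139, and medians over -0.065 to 0.074 and -0.040 to 0.077. For the interaction these were 0 to 1 members higher, 0 to 0 lower, 1 to 71 genes and medians of -0.14 to 0.050. Over the leave-one-out fits signs turned in GFP mice for Cps1 (-0.17 to 0.12), Gpt2 (-0.12 to 0.00799), Amt (-0.15 to 0.14) and Aldh4a1 (-0.10 to 0.28), and in P16 mice for Arg1 (-0.16 to 0.094), Got1 (-0.29 to 0.082) and Aldh4a1 (-0.13 to 0.013). The causes were not tested. In simulated counts for the 48 h comparison of the arms, at this depth and 3 mice a group, 82% of 2-fold changes above a floor on mean level were recovered. Recovery was not simulated for the interaction, where the median SE over all genes was 0.287, beside 0.2 at 48 h.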
